A study of Mus musculus with 6 samples.

Results

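The 10 genes described here are known targets of the let-7 microRNAs that belong to the Lin28 circuit: the RNA-binding proteins Lin28a, Lin28b, Igf2bp1, Igf2bp2 and Igf2bp3, the ubiquitin ligase Trim71, the nuclear receptor Nr6a1, the DNA-binding proteins Arid3b and Hmga2, and the phosphatase Cdc25a. They were taken from general knowledge of let-7 and were chosen with earlier results of these same arrays in view, so the differences between the groups are given below as a description, and none of them supports another. The platform table assigned 12 spots to 9 of the 10 genes and no spot to Igf2bp2, and 10 of the 12 spots, covering those 9 genes, were bright enough to be tested, out of 17727 tested spots of 15012 genes. The study measured total RNA of dissected mouse hearts of embryonic day 11.5, with 6 CodeLink arrays of 1 colour each. Mutant hearts (3 arrays) lacked Dicer in cells where a Cre recombinase knocked into the Nkx2.5 locus is active, and 3 arrays held control hearts. The labels give neither the genotype of the controls nor whether they carried the Cre, and do not say whether an array held 1 heart or a pool. Cells of the heart outside the Nkx2.5 lineage keep Dicer, and in RNA of a dissected heart fewer cells of a type and less RNA per cell cannot be told apart.

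Dicer is the ribonuclease that cuts a microRNA precursor into its mature form. The let-7 family appears as embryonic cells differentiate, and its members lower transcripts that carry matches to their seed, the stretch near the 5′ end that pairs with a target. Lin28a and Lin28b bind let-7 precursors and keep them from being cut. Lin28a does so partly by calling in enzymes that add uridines and mark the precursor for decay. Both Lin28 transcripts are in turn let-7 targets, so that each side of this loop holds the other down.

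The mature let-7 sequences are shown because their shared seed is the stretch that pairs with targets. In the RefSeq microRNA table (GRCm38.p6), 10 of 11 listed let-7 family members carried the same bases 2 to 8, GAGGUAG, whose complement in a target reads CTACCTC, and let-7j carried GAGGUAU. Seed bases are in capitals, and positions are counted from the 5′ end.
let-7a: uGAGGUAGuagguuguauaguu
let-7c: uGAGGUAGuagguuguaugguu
let-7g: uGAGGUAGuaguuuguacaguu
let-7i: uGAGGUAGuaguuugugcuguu
miR-98: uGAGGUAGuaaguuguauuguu
let-7j: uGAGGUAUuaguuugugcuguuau
Outside the seed, let-7c differed from let-7a by A19G, let-7g by G12U and U18C, miR-98 by G11A and A19U, and let-7i by 4 substitutions (G12U, A17G, U18C and A19U). The arrays measured none of these small RNAs. Target sites in the 10 transcripts were not analysed here.

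Lin28 proteins are known to recognise the letters GGAG in the loop of let-7 precursors. Of 12 let-7 family hairpins with both arms placed, 9 held GGAG between the arms, on the hairpin strand. The share was 8.22% over 645 mouse hairpins, these 12 included. Where a let-7 family hairpin had 1 listed arm, the other was placed by matching let-7a. Other hairpins were counted only with 2 listed arms. Hairpins of 1 family share descent, so the share is a description. The let-7g hairpin (chr9:106178840-106178927, plus strand) held the motif, here in capitals, 3 bases before its 3′ arm. The let-7b hairpin (chr15:85707319-85707403, plus strand), with let-7c-2 and miR-98, had none there.
let-7g hairpin: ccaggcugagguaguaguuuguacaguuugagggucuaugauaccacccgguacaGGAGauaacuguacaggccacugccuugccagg
let-7b hairpin: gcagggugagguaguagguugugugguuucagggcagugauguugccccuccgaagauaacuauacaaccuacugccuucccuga

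Between 74.1% and 78.2% of the 36227 spots on an array were above background. The Dicer1 spot read 6.72 ± 0.03 log2 units in mutant and 7.72 ± 0.10 in control hearts (SD, n = 3 each; limma adjusted p = 0.0359), and where it lies relative to the deletion was not given. Its difference of -1.01 was -0.95 to -1.05 with any 1 array left out, but the call held only without control 3, at adjusted p of 0.066 to 0.326 otherwise. The fits without the call had at most 1 spot called over the whole array, against 318 without control 3. The arrays did not sort by group alone: control 3 lay with mutants 1 and 2 on the first principal component, which held 54.1% of the variance, and mutant 3 stood apart on the second, with 21.6%. Values of the 10 genes that rest on control 3 or mutant 3 are therefore given with and without it. Of 13 cardiomyocyte marker genes with a spot, 12 were above background on all 6 arrays. Of 6 germ cell marker genes with a spot, 3 were above background on all 6 arrays, and Dazl, Dppa3 and Tfap2c were above it on none. No label says that replicate arrays hold different hearts, so the errors measure the spread between arrays, which may be partly technical.

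Of the 10 tested spots, 5 had all 3 mutant arrays above all 3 control arrays: those of Nr6a1, Trim71, Arid3b, Lin28a and Cdc25a. Among all spots 15.2% were separated, 9.89% in that direction and 5.28% in the other. The spots of Lin28b, Hmga2, Igf2bp1 and Igf2bp3 overlapped between the groups, and none had all mutant arrays below the controls. A difference is called here at a limma adjusted p under 0.05 over all tested spots. In the fit 1 of the 10 spots was called, that of Nr6a1, with 0.0508% of all tested spots called, 0.0282% higher and 0.0226% lower in the mutants. Because the genes were chosen on this contrast, nothing is read from either count. Taking the brightest spot of each gene, the median log2 difference was 0.57 over the 9 genes, and 7 were above 0. Over all tested genes the median was 0.01, and 52.4% were above 0.

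**Figure D1:**
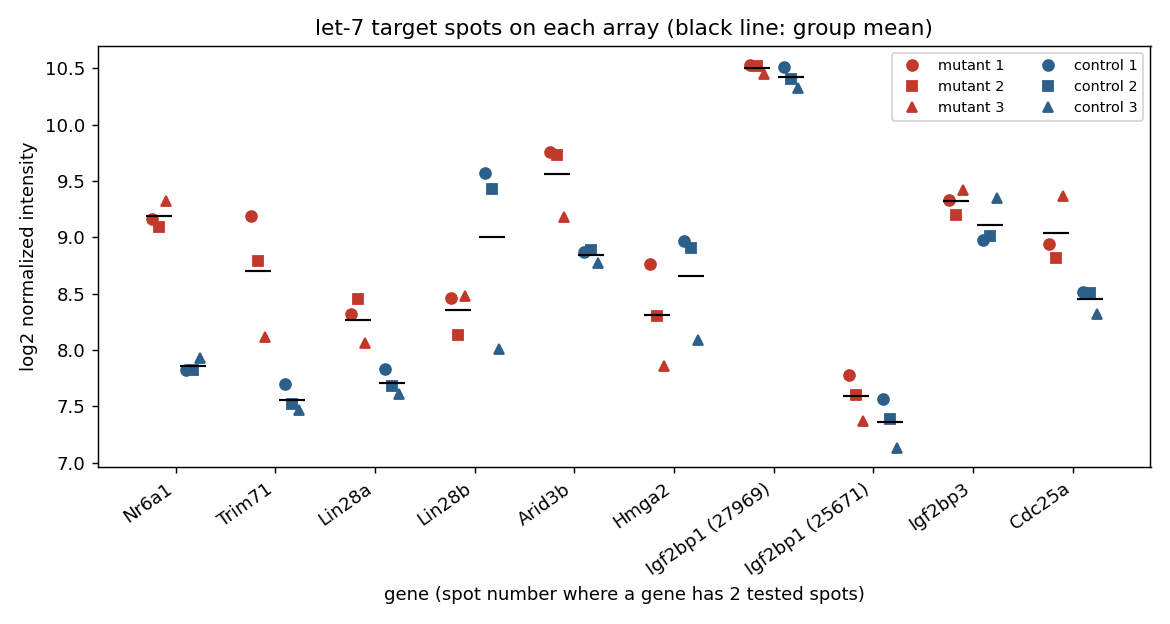
Log2 normalized intensity (vertical axis) of the 10 tested spots on each of the 6 arrays, mutant in red and control in blue, with black lines at group means of 3 arrays; heights of different spots are not comparable. The mutant Nr6a1 values sit at 9.09 to 9.32 and the control values at 7.82 to 7.93, while for Lin28b control 3, at 8.01, lies below every mutant array.

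Nr6a1 encodes germ cell nuclear factor, an orphan nuclear receptor that represses transcription and silences Oct4 in the early embryo. Its brighter spot read 9.16, 9.09 and 9.32 log2 units in mutants 1, 2 and 3, and 7.82, 7.82 and 7.93 in controls 1, 2 and 3. The groups were separated by a gap of 1.16, wider than the spread within either. The difference was 1.33 ± 0.10 (log2, SE), a level 2.52-fold that of the controls (95% interval 2.14 to 2.97). Only 0.0621% of all tested spots had a larger positive difference.

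On the authors' normalized linear scale, which carries no offset, Nr6a1 read 7.04 ± 0.669 against 2.38 ± 0.0823 (SD, n = 3 each), a ratio of 2.96. Leaving out any 1 array gave 1.27 to 1.39. The call was kept only without control 3 (limma adjusted p = 0.0378). It was lost without each other array, at limma adjusted p of 0.0596 to 0.317. The fits that lost it called at most 1 of all tested spots, so the loss was not particular to Nr6a1. A second Nr6a1 spot, printed from the same RefSeq transcript record, was at background on all 6 arrays, at 5.83 to 6.04, so that the gene's value rests on a single spot.

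Trim71, the mouse form of the worm let-7 target lin-41, is a ubiquitin ligase and RNA-binding repressor of early development. It read 9.19, 8.79 and 8.12 in mutants 1, 2 and 3, and 7.70, 7.52 and 7.47 in the controls. All mutant arrays lay above the controls, with mutant 3 nearest to them. The difference was 1.14 ± 0.26 (log2, SE), or 2.20-fold (95% interval 1.43 to 3.39), and did not pass. The mutant SD of 0.54 was larger than that of 95.8% of tested spots, against 0.12 in the controls. The difference was 1.43 without mutant 3 and 0.89 without mutant 1, neither called.

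Arid3b, a DNA-binding protein with an AT-rich interaction domain, had the same order of mutant arrays as Trim71. It read 9.76, 9.73 and 9.18 in mutants 1, 2 and 3, and 8.87, 8.89 and 8.77 in the controls, with an SD of 0.07 among the controls, while mutant 3 stood 0.57 below the mean of the other mutants. The difference was 0.72 ± 0.17 (log2, SE), or 1.64-fold (95% interval 1.24 to 2.18), and was not called. Without mutant 3 it was 0.9, also not called.

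Lin28a, the cytoplasmic protein that blocks let-7 precursors together with uridylating enzymes, read 8.32, 8.45 and 8.06 in mutants 1, 2 and 3, and 7.83, 7.68 and 7.61 in the controls. The groups did not overlap, with a gap of 0.23. The difference was 0.57 ± 0.13 (log2, SE), or 1.48-fold (95% interval 1.2 to 1.83), and was not called. It was 0.67 without mutant 3 and 0.52 without control 3. The profiles of Lin28a and Arid3b, each taken around its own mean, were the closest of the 36 pairs of these genes, with a root mean square difference of 0.131 log2 units over the 6 arrays.

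Cdc25a is the phosphatase that activates cyclin-dependent kinases at entry into the S phase. It differed from the preceding 3 genes in which mutant array was high. It read 8.94, 8.82 and 9.37 in mutants 1, 2 and 3, and 8.52, 8.51 and 8.32 in the controls, so that mutant 3 was the highest array and not the lowest of its group. The difference was 0.59 ± 0.16 (log2, SE), or 1.51-fold (95% interval 1.16 to 1.96). It was not called. Without mutant 3 it was 0.43.

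**Figure D2:**
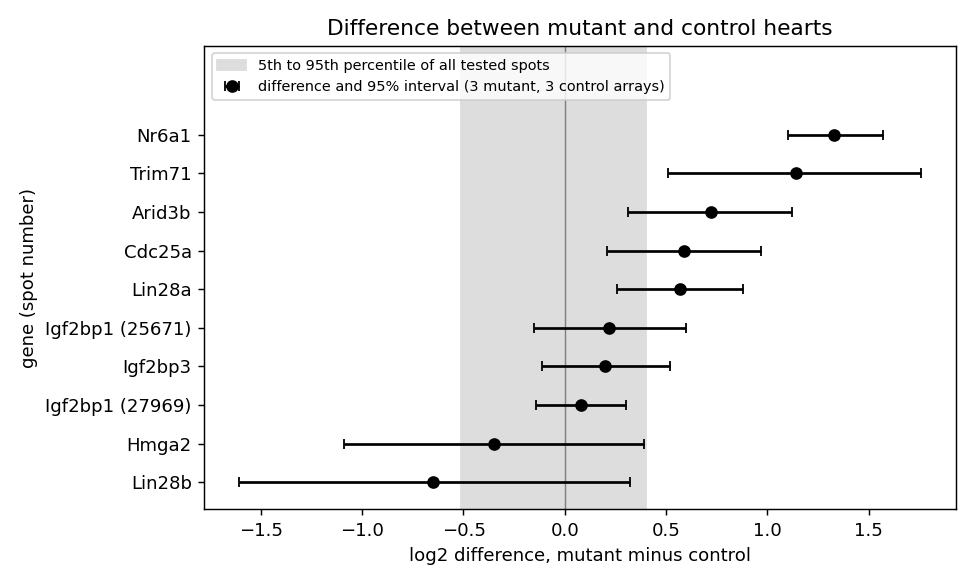
Log2 difference between mutant and control (horizontal axis) of each tested spot with its 95% interval from limma, 3 arrays per group, over a grey band from the 5th to the 95th percentile of all tested spots (-0.51 to 0.40). The intervals of Nr6a1 and Trim71 lie wholly to the right of the band, and those of both Igf2bp1 spots, Igf2bp3, Hmga2 and Lin28b include 0.

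The array titles begin with a code read here as the slide, by which mutants 1 and 2 shared a slide with control 1 and every other array had a slide of its own. With that code as a block, which leaves mutants 1 and 2 against control 1 and 1 residual degree of freedom, the log2 differences were 1.3 for Nr6a1, 1.29 for Trim71, 0.88 for Arid3b, 0.55 for Lin28a, 0.36 for Cdc25a and -1.27 for Lin28b. They are given as values within the slide, since the control arm is a single array.

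Lin28b, the paralogue of Lin28a that also blocks let-7 precursors, did not follow Lin28a. Its spot read 8.46, 8.13 and 8.48 in mutants 1, 2 and 3, and 9.57, 9.43 and 8.01 in controls 1, 2 and 3. Controls 1 and 2 lay above every mutant array, whereas control 3 was the lowest of all 6. The control SD of 0.86 exceeded that of 98.5% of tested spots. The difference was -0.65 ± 0.40 (log2, SE), a level 0.639 of the controls (95% interval 0.327 to 1.25). Without control 3 it was -1.14 and was called (limma adjusted p = 0.0447). That fit called 318 of 17727 tested spots, 119 higher and 199 lower, against 9 with all arrays. Without control 1 the Lin28b difference was -0.36, the value nearest 0 with any 1 array left out.

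Some marker genes of other cell types had the array order of Lin28b, with controls 1 and 2 both above the other 4 arrays, as had 15.2% of all tested genes. Among erythroid genes 6 of 10 had it, led by the anion exchanger Slc4a1. Slc4a1 read 10.54, 10.27 and 7.99 in controls 1, 2 and 3 and 8.45 to 9.23 in the mutants. The tested erythroid genes without it were globins: Hbb-y, Hbb-bh1 and Hba-x, at 14.9 to 15.23 on every array, and Hba-a1, at 13.46 to 13.97. The summed signal of the list, in units of 1000 intensity units, lay between 115 and 129 on every array. Most of that sum came from the globins, near the top of the intensity range, so the sum does not show how the other erythroid genes differed. Of 7 tested epicardial genes 3 had the order of Lin28b: Tcf21 (12.62, 12.53 and 11.25 in controls 1, 2 and 3), Bnc1 (11.28, 11.09 and 10.06) and, by 0.07, Upk1b. Wt1 did not, at 8.49, 8.39 and 8.69, nor did Tbx18 and Aldh1a2. The epicardial sum of 10.2, 9.42 and 4.8 in controls 1, 2 and 3 and 4.43 to 6.01 in the mutants therefore rests on Tcf21 and Bnc1. Of 6 tested liver genes only Trf had it (11.28, 11.23 and 10.4), and Afp, Fgb, Ttr, Ahsg and Apoa2 did not. Of 11 neural genes 3 had it, Sox2 by 1.15 and Stmn2 and Neurod1 by at most 0.12. The order was found in 2 of 10 mesenchyme, limb and pharyngeal genes, whose sum was 3.98, 4.21 and 4.56 in controls 1, 2 and 3, in 1 of 13 cardiomyocyte genes, in 1 of 9 endothelial genes and in 0 of 3 germ cell genes. The part of these cell types in the Lin28b values was not tested.

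Hmga2, a chromatin protein of embryonic growth, shared with Lin28b a control 3 value below those of controls 1 and 2. Its brighter spot read 8.97, 8.91 and 8.09 in controls 1, 2 and 3, and 8.76, 8.30 and 7.86 in mutants 1, 2 and 3. Mutants 1 and 2 lay between control 3 and the other controls, and mutant 3 was the lowest array. The difference was -0.35 ± 0.31 (log2, SE), with a 95% interval of -1.09 to 0.39, and its lowest and highest values with 1 array left out were -0.63, without control 3, and -0.13, without mutant 3. None was called. A second Hmga2 spot, printed from an expressed sequence tag record, was above background on 2 arrays and was not tested.

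**Figure D3:**
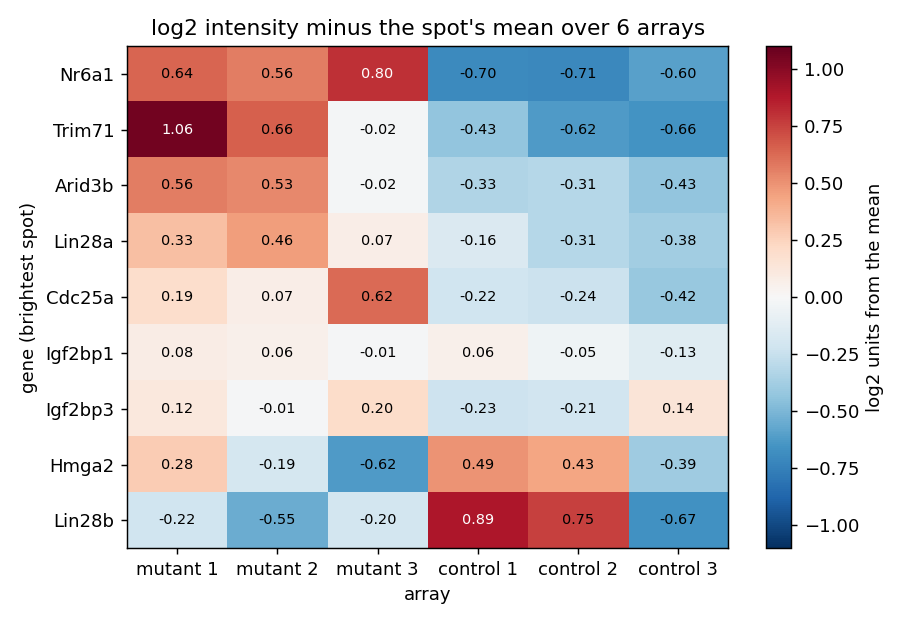
Log2 intensity of the brightest spot of each gene (rows) on each array (columns) minus that spot's mean over the 6 arrays, in log2 units, red above and blue below the mean. The first 5 rows are negative on all 3 control arrays, Lin28b is at 0.89 and 0.75 on controls 1 and 2 but -0.67 on control 3, and Igf2bp1 stays within 0.13 of its mean.

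The Igf2bp proteins bind and stabilise or localise mRNAs such as Igf2 and Myc, and Igf2bp1 and Igf2bp3 had spots. The brighter Igf2bp1 spot read 10.53, 10.52 and 10.45 in mutants 1, 2 and 3, and 10.51, 10.41 and 10.33 for the control arrays. These values overlapped, and the difference was 0.08 ± 0.09 (log2, SE), with a 95% interval of -0.14 to 0.30, which does not show that the levels were equal. The dimmer Igf2bp1 spot gave 0.22 ± 0.16. Igf2bp3 read 9.33, 9.20 and 9.42 in mutants 1, 2 and 3, and 8.98, 9.01 and 9.35 for the control arrays. Control 3 lay within the range of the mutants. Its difference was 0.20 ± 0.13, and 0.32 without control 3. None of these was called.

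**Figure D4:**
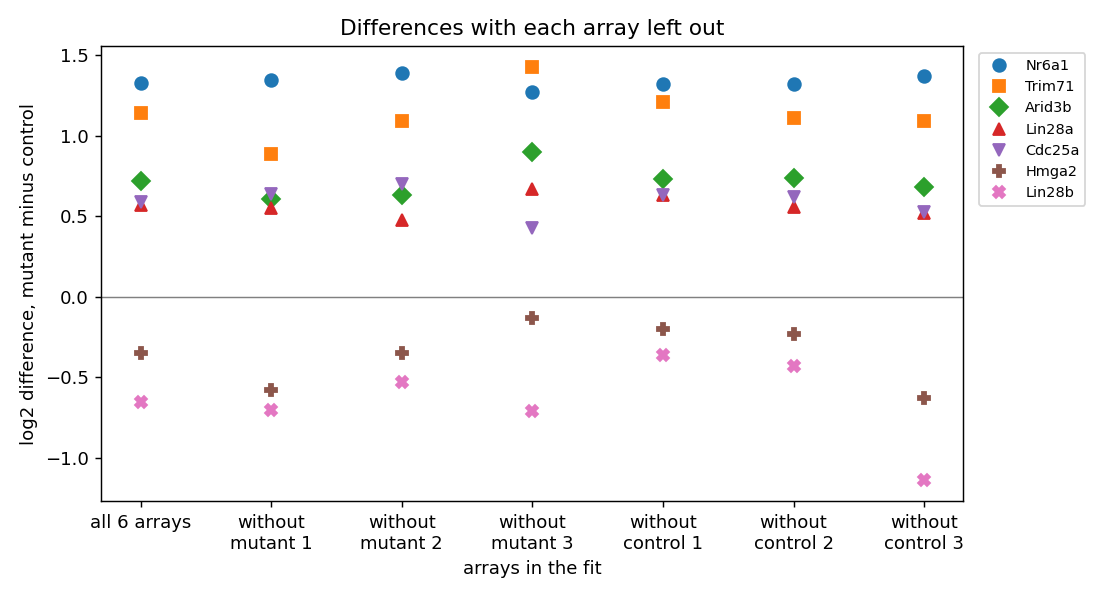
Log2 difference between mutant and control (vertical axis) for 7 genes, with all 6 arrays and with each array left out in turn (horizontal axis). Nr6a1 stays between 1.27 and 1.39, Trim71 ranges from 0.89 to 1.43, and Lin28b moves from -0.36 without control 1 to -1.14 without control 3.

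Among named genes with the most similar profiles, by the root mean square difference of log2 values around each spot's own mean over the 6 arrays, the splicing regulator Celf1 was nearest to Nr6a1 at 0.106, against a median of 0.681 over all genes, followed by Lrch1 (0.172) and Insl6 (0.176). For Trim71 the nearest were Hspbap1 (0.116), Prtg (0.128) and Slc16a12 (0.169). Prtg, which encodes the cell surface protein protogenin, is on the list of other let-7 targets. For Lin28b they were Fkbp5 (0.0465), Trpm6 (0.0671) and the linker histone H1f4 (0.0689), and each of the 3 was higher on controls 1 and 2 than on any other array. For Hmga2 they were Sppl2b (0.0914), Ift140 (0.0956) and Ano1 (0.106), and for Cdc25a they were Rttn (0.0718), Colq (0.0726) and the cardiac growth factor Bmp10 (0.0958). The other genes spanned less than 1 log2 unit and were left out of this comparison. Neighbours were picked for small differences, so values far below the median and a shared array order follow from the choice.

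Other let-7 targets were about evenly divided. Of 50 listed genes, 42 had a spot and 40 were tested, of which 0 were called by limma and 3 (7.5%) had an unadjusted p under 0.05, against 10.2% of all tested genes. The median log2 difference was -0.01, with 19 genes above 0 and 21 below, and 4 (10%) had all mutant arrays above the controls and 3 (7.5%) all below, against 9.71% and 5.48% of all tested genes. Prtg gave 1.07 ± 0.19 (SE) with an adjusted p of 0.149. It read 7.87, 7.74 and 7.15 in mutants 1, 2 and 3, and 6.53, 6.54 and 6.48 for the control arrays, the same order of mutant arrays as Trim71. The Polycomb methyltransferase Ezh2 gave 0.53 ± 0.12. On the lower side Onecut2 gave -0.21 ± 0.08 and Gatm, an enzyme of creatine synthesis, -0.31 ± 0.13.

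**Figure D5:**
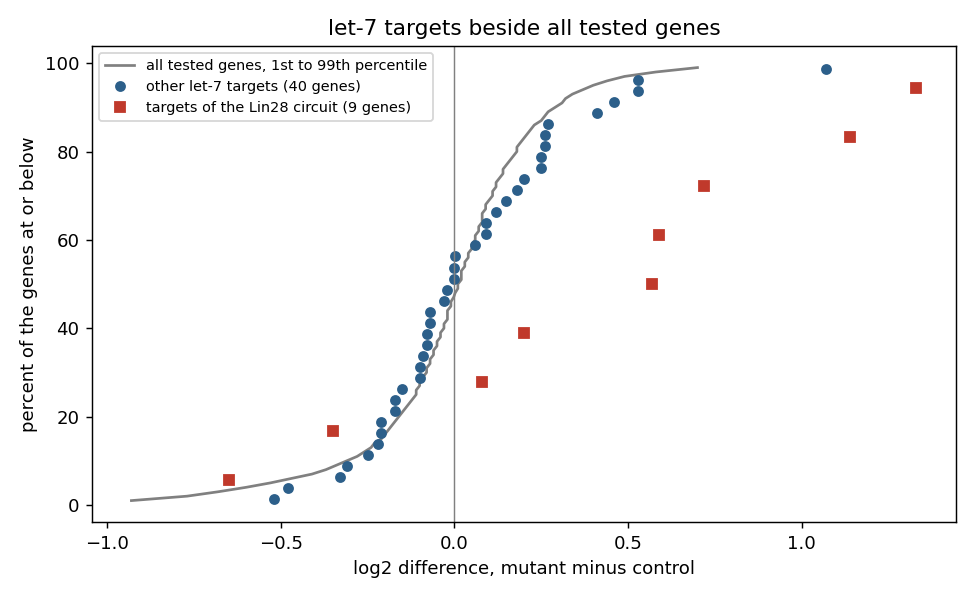
Cumulative percent of genes (vertical axis) against the log2 difference between mutant and control (horizontal axis) for 9 targets of the Lin28 circuit (red), 40 other let-7 targets (blue) and all tested genes from the 1st to the 99th percentile (grey line). The blue points follow the grey line over most of the range, with a median of -0.01 against 0.01, and the red points, which were chosen on this contrast, have a median of 0.57.

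Of 18 tested genes for let-7 maturation and turnover, Dicer1 alone was called. The median difference was 0.09, and 13 genes (72.2%) were above 0, against 52.4% of all tested genes. All mutant arrays lay above the controls for 3 genes (16.7%), against 9.71% of all tested genes. These 3 are named after their values were seen. The silencing effector Ago3 gave 0.69 ± 0.18 (log2, SE), Drosha, which cuts primary microRNA transcripts, 0.31 ± 0.11, and Ago2 0.26 ± 0.13. Ago1 (0.01 ± 0.19), Ago4 (-0.02 ± 0.12), Dgcr8 (0.18 ± 0.43) and Xpo5 (0.09 ± 0.16), of the same list, overlapped between the groups. None of these passed the test. Tut4, a uridylyl transferase that acts with Lin28a on let-7 precursors, was likewise chosen after the fact and read 10.02, 9.74 and 11.18 in mutants 1, 2 and 3, and 11.72, 11.67 and 10.66 for the control arrays. The groups overlapped, with mutant 3 above control 3, and the difference was -1.04 ± 0.44 (log2, SE; limma adjusted p = 0.508). It was -1.47 without mutant 3 and -1.38 without control 3, neither called.

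Around Cdc25a, 11 genes were tested: Cdc25 phosphatases, cyclins, cyclin-dependent kinases and the kinases Chek1, Wee1 and Pkmyt1. Of these, 0 were called by limma and 3 (27.3%) had an unadjusted p under 0.05, against 10.2% of all tested genes. The median was 0.24. Cyclin A2 (Ccna2) gave 0.28 ± 0.09 and the inhibitory kinase Wee1 0.43 ± 0.17, while Cdc25b gave -0.34 ± 0.17 and Cdc25c -0.19 ± 0.11 (log2, SE). Of 6 tested transcripts bound by Igf2bp proteins or encoding their partners, 0 were called and 0 had an unadjusted p under 0.05. Fmr1 gave 0.27 ± 0.15, the imprinted H19 0.07 ± 0.08, Myc, which is also on the list of other let-7 targets, -0.25 ± 0.16 and Elavl1 -0.10 ± 0.10. Of 8 tested pluripotency and germ line genes, 0 were called and 1 (12.5%) had an unadjusted p under 0.05. Their median was -0.29, with 2 genes above 0 and 6 below. Pou5f1, which encodes the Oct4 that Nr6a1 represses in the early embryo, gave 0.03 ± 0.25, Dppa4 0.12 ± 0.16, Nanog -0.37 ± 0.12 and Sox2, which is also on the neural list, -0.74 ± 0.51. Sox2 read 8.62, 8.59 and 6.72 in controls 1, 2 and 3 and 6.95 to 7.44 in the mutants, with control 3 the lowest array, as for Lin28b. So did Gdf3, at 8, 7.88 and 6.9 in controls 1, 2 and 3 and 7.1 to 7.31 in the mutants. Tdgf1 also had controls 1 and 2 highest, at 10.97 and 10.81, with mutant 3 at 10.77. The other tested genes of this list did not have controls 1 and 2 above the rest. Without control 3, a setting added after seeing the data, the Sox2 difference was -1.37 and was called (limma adjusted p = 0.0434). That fit called 318 of 17727 tested spots.

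The promoters of the Lin28 paralogues are shown because these genes differed in which arrays were high. Each is the RefSeq window of 300 bases, 250 before to 50 after the start, on the minus strand of GRCm38.p6. The Lin28a window (chr4:134018767-134019066) had 63.3% G and C with 10 CpG dinucleotides, and the Lin28b window (chr10:45470152-45470451) 39.0% with 8, against a median of 52.7% over 32851 promoters. Lin28b held the E-box CACGTG, in capitals, which reads the same on both strands and does not overlap the other motif searched.
Lin28a: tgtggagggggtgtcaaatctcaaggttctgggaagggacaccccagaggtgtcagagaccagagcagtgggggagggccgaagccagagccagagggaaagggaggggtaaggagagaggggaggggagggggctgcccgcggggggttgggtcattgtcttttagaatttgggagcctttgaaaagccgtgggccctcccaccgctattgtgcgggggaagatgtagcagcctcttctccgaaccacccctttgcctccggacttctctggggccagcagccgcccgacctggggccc
Lin28b: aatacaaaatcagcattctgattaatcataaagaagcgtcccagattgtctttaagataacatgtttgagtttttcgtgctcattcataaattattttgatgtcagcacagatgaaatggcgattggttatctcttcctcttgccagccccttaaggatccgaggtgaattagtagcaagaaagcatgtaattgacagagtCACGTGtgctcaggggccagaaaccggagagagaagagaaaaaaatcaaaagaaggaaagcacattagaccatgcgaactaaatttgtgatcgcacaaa
Of 11 windows of 9 of the 10 genes, Igf2bp1 having no entry, 2 held CACGTG (Lin28b and Igf2bp3), as did 7.15% of all promoters. The letters TTTGGCGC, the core of an E2F site searched on both strands, were in 1 window, that of Cdc25a, and in 0.514% of all promoters. The arrays did not measure binding at these sequences.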

How the data were processed

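Per the labels, RNA of embryonic hearts was labelled with biotin and hybridised to CodeLink arrays, 3 per group; replicates were numbered within a group. Per the file headers, the deposited files give spot and background intensity, an intensity normalized by the authors and a quality flag, with scanner, software and build not given in the sources used here. Checked on the values, the authors' normalized intensity was the subtracted intensity divided by 66.1 to 82.8, constant within an array, and the series' value table repeated it on spots flagged good. Its column medians were 1.83 to 2.06 on a linear scale, uncentred.

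Spot means were corrected with normexp (offset 50), converted to log2 and quantile-normalized over the 21880 spots that the platform table lists with a gene; control spots are not marked. The offset pulls differences of dim spots towards 0. A spot was tested when flagged above background on at least 3 of 6 arrays. Groups were compared with lmFit and eBayes (limma 3.58.1, R 4.3.3), two-sided, without a block, with Benjamini-Hochberg adjustment over all 17727 tested spots. Genes of other lists are counted by their brightest tested spot. The number of arrays limits the precision. All 12 member spots matched a RefSeq gene number.

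The members, lists and tests were chosen with earlier results of these data known. Members are named whatever their values. Of other lists, called genes are named, otherwise up to 2 higher and 2 lower with the smallest p. Exceptions, chosen after their values were seen, are Ago1, Ago2, Ago3, Ago4, Drosha, Dgcr8, Xpo5, Tut4, Gdf3, Tdgf1 and the cell type markers. Marker lists are summed over the brightest spot of each gene, offset removed.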

Additional observations from a re-analysis of the deposited data

How the results depend on the processing

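The 10 member spots kept the sign of their difference in all 191 values run; 174 stayed on the same side of the threshold, 8 lost the call, all of Nr6a1, and 9 gained it. The 1 member spot called stayed at 1 under each alternative of background, scaling and filter. It became 4 with the slide block, which has 1 residual degree of freedom and a single control array, 0 with the replicate block by title number (Nr6a1 at 1.33, limma adjusted p = 0.517), 0 to 2 with 1 array left out, and 0, 0 and 6 without both arrays of the title number of replicate 1, 2 or 3. In the last of these Trim71 (1.38), Arid3b (0.87), Lin28a (0.63) and Cdc25a (0.36) were called higher and Lin28b (-1.2) lower. The 9 spots called over the whole array became 5 with the subtracted intensity, 4 with the authors' normalized intensity, 5 with the series' value table, 1340 with the slide block, 0 with the replicate block, 0 to 318 with 1 array left out (318 without control 3, at most 1 otherwise), and 0, 0 and 3919 without both arrays of replicate number 1, 2 or 3. At an unadjusted p under 0.05 there were 1775 in the fit of all arrays and 424 to 6368 under these alternatives. The 0 other let-7 targets called became 4, all higher, with the slide block and 7, all higher, without both arrays of number 3, and stayed 0 otherwise. The higher share of the whole-array calls was 5 of 9, and 1 of 4 with the authors' normalized intensity and 2 of 5 with the subtracted intensity or the value table. Arrays that share a title number did not deviate together (correlations 0.01, -0.48 and -0.38), so the block was not used as a pairing. The median difference of all tested spots lay between 0.00051 and 0.03 under every setting. Tut4 and Sox2 without mutant 3 or control 3 were added after seeing the data. The cause of these changes was not tested.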
